A study of Mus musculus with 3 samples.

Results

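Luteal-like cells were picked out of the deposited class of luteinized granulosa cells in dissociated mouse ovary by comparing the raw UMIs (unique molecular identifiers, each a counted RNA molecule) of 5 genes in every cell. A cell of that class was taken as luteal-like when its UMIs of Akr1c18 and Ptgfr together exceeded those of Cyp17a1, Aldh1a1 and Mgarp together. The rule found 52 cells among 929 of the class and among 14353 cells in all. Another 876 cells of the class had the higher theca sum and are called theca-like, and 1 cell was tied. Of the 52 luteal-like cells, 47 came from young mice, 2 from aged mice and 3 from mice given metformin. Since the members were chosen by these 5 genes, the levels of the 5 are given below as a description.

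The mice were C57BL/6 females. The young group was 3 months old, the metformin group drank metformin at 350 mg/kg/day for 6 months starting at 14 months of age, and the aged group was left untreated, its age not being stated for its cells. Each group had 5 mice. From 3 of them the left ovary was taken, and these ovaries were combined by group and digested for 30 min at 37 °C. The suspension passed a 40 µm strainer, red cells were lysed, and cells were sorted through a gate the labels do not give. Cells of the groups carried separate lipid-anchored DNA tags (MULTI-seq) and were sequenced together in 3 pools, A, B and C. Each group is therefore 1 sample, with the pools as technical repeats of it. This design allows no test between groups, and every 95% interval covers counting error only.

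The corpus luteum forms after ovulation from the granulosa and theca cells of the ruptured follicle and makes progesterone. Cholesterol taken up or made by the cell is carried into mitochondria by Star, cut to pregnenolone by Cyp11a1 and turned into progesterone by Hsd3b1. In rodents prolactin maintains the corpus luteum. Prostaglandin F2α, acting on the receptor encoded by Ptgfr, ends its life, when Akr1c18, the 20α-hydroxysteroid dehydrogenase, converts progesterone to an inactive form.

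Upstream sequences are shown for both genes that define the luteal side of the rule and for Hmgcs1, an early enzyme of cholesterol synthesis whose level differed among the members, as described below. They are from RefSeq on GRCm38.p6, written in the direction of the gene, with bases that a transcript holds as untranslated sequence left out. Capitals mark a nuclear receptor core site (AGGTCA, or TGACCT on the other strand) or the core CACCCCAC of a sterol element. The Hmgcs1 bases lie at chr13:119690101-119690350 on the plus strand, those of Ptgfr at chr3:151837631-151837778 and those of Akr1c18 at chr13:4150655-4150896, both on the minus strand.
Hmgcs1: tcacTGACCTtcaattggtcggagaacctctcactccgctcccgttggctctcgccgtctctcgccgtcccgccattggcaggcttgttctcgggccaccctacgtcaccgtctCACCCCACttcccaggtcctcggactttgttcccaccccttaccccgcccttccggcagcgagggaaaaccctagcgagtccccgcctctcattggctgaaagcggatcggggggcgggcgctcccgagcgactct
Ptgfr: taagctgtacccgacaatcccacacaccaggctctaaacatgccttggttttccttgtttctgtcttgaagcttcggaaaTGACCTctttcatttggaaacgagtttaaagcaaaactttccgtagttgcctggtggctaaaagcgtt
Akr1c18: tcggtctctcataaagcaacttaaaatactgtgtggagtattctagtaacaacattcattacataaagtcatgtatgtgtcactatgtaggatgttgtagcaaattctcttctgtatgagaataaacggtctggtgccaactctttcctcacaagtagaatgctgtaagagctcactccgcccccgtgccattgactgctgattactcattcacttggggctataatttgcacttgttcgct

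The receptor site starts 246 bases before the start of Hmgcs1, and there the longer form AAGGTCA, bound by the NR5A family of receptors, is present too. The sterol core starts 136 bases before the same start. The Ptgfr bases hold the receptor site marked above, and the Akr1c18 bases shown hold neither motif. These matches describe letters only. Over 32851 promoter windows of RefSeq, both strands searched, AAGGTCA was in 4.72%, AGGTCA (which lies within it) in 16.3% and CACCCCAC in 2.87%. Counted by gene over 27025 genes, the shares were 5.38%, 18.1% and 3.30%. Of the 22 cholesterol biosynthesis genes listed for this work, 17 had a promoter in the table. AAGGTCA was in 2 of them (Dhcr7 and Hmgcs1), AGGTCA in 3 (these and Insig1) and CACCCCAC in 2 (Acat2 and Hmgcs1). Of 35 genes of steroid synthesis and cholesterol uptake, 23 matched, with AAGGTCA in 0, AGGTCA in 6 (Akr1c18, Cd36, Cyp11a1, Cyp19a1, Plin2 and Scp2, some of these matches lying outside the bases printed) and CACCCCAC in 1 (Akr1cl). AGGTCA and CACCCCAC were added to the search after the values were seen.

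The luteal-like cells were mostly cells of young ovaries. They made up 0.617% of 7620 young cells (exact Clopper-Pearson interval 0.454 to 0.819), 0.0671% of 2979 aged cells (0.00813 to 0.242) and 0.0799% of 3754 metformin cells (0.0165 to 0.233). The ratio of aged to young shares was 0.109 (0.0128 to 0.416) and of metformin to young 0.130 (0.0258 to 0.403). Metformin against aged was 1.19 (0.136 to 14.3), an interval too wide to order these conditions. In pools A, B and C the young share was 0.601%, 0.480% and 0.762%. Both aged cells were in pool B. The other pools had 0 of 1225 and 0 of 814 aged cells, which allows shares of up to 0.245% and 0.369%. Each pool held 1 metformin cell, with shares of 0.0763%, 0.0969% and 0.0708%. All 3 young pool shares lay above every aged and metformin pool share.

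Within the luteinized class the difference was smaller and its interval included equality. Luteal-like cells were 5.98% of 786 young class cells (4.43 to 7.87), 3.28% of 61 aged ones (0.400 to 11.3) and 3.66% of 82 metformin ones (0.761 to 10.3). The ratio to young was 0.548 (0.0645 to 2.09) for aged and 0.612 (0.122 to 1.90) for metformin. The lower share among all cells thus went with fewer class cells, and a further difference in the makeup of the class was not detectable with 2 and 3 cells. Median depth over all cells was 5277.5 UMIs in young, 3034 in aged and 2752 in metformin. When every cell was thinned to 1000 UMIs before the rule was applied, the shares were 0.457%, 0.0696% and 0.112%, from 34, 2 and 4 cells. Shares also depend on the strainer, the digestion and the gate, whose part was not tested.

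**Figure D1:**
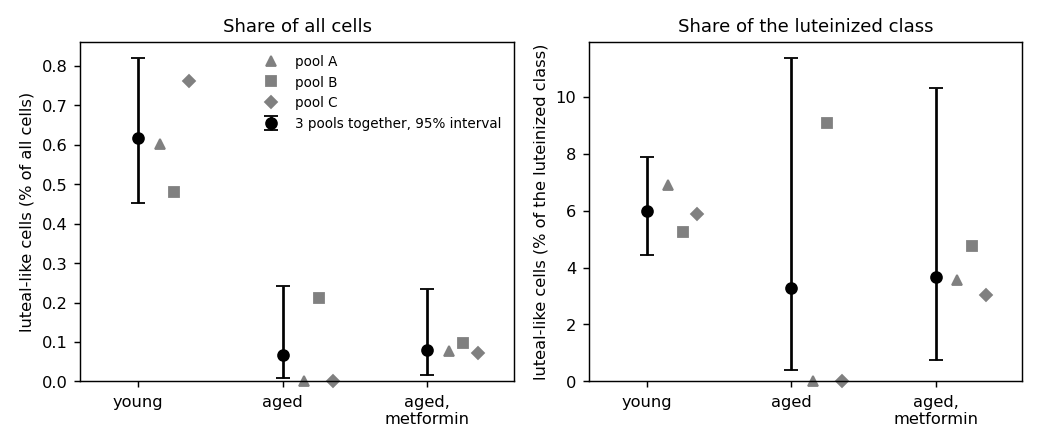
Luteal-like cells as a percent of all cells (left) and of the luteinized class (right) in the young, aged and metformin conditions; black circles are the 3 pools together with their exact 95% binomial interval (counting error only) and grey symbols are pools A, B and C. On the left the young value of 0.617% and its 3 pool values lie above all aged and metformin values, and on the right the intervals overlap.

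The 47 young members held 557874 UMIs, with a median of 11145 per cell (2095 to 36031), against medians of 8145 in 738 young theca-like cells and 8363.5 in 996 young follicular granulosa cells. Their median share of mitochondrial UMIs was 6.82% (0.162 to 18.0), with 12 of 47 cells over 10%. It was 8.48% in theca-like and 5.91% in granulosa cells. No barcode was shared between members in different pools, while 26 barcodes were shared between pools over all cells. By the deposited phase calls 87.2% of members were in G1, against 84.4% of theca-like and 55.8% of granulosa cells.

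Ptgfr was spread over nearly all members and Akr1c18 was not. Ptgfr had a UMI in 46 of 47 young cells and stood at 1499 CPM (summed UMIs of the gene scaled to a total of 1e+06), with 1668, 1479 and 1367 CPM in pools A, B and C. Theca-like cells had 28.7 CPM and granulosa cells 0.827 CPM. Akr1c18 had a UMI in 26 of 47 cells, from 0 to 261 UMIs with a median of 1, and 22.9% of its UMIs came from 1 cell. Its level was 2042 CPM, with 1439, 859 and 3361 CPM in the pools, against 0.444 CPM in theca-like and 1.55 CPM in granulosa cells. In 314 young T cells, which should lack both genes and had a median of 2575 UMIs, Akr1c18 had a UMI in 1 cell (0.318%) and Ptgfr in 0, which allows a share of up to 0.955%. The 47 cells held 87.6% of the 1300 Akr1c18 UMIs of all young cells and 78.4% of the 1067 Ptgfr UMIs.

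On the theca side of the rule, Cyp17a1, the enzyme that commits steroid synthesis to androgen, had no UMI in any of the 52 members, which allows a share of cells of up to 5.77%. It had a UMI in 199 of 738 young theca-like cells, at 986 CPM, and in 3 of 314 T cells. Aldh1a1, a retinal dehydrogenase, was at 91.4 CPM in members and 3378 CPM in theca-like cells. Mgarp, a mitochondrial protein of steroid-making cells, was at 194 and 2869.8 CPM. In the GENCODE annotation of GRCm38 these are protein-coding genes, with Akr1c18 at chr13:4132615-4150654 and Ptgfr at chr3:151796502-151837630, both on the minus strand, and Cyp17a1 at chr19:46667165-46673172.

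At the edge of the rule, 8 cells passed by a margin of 1 to 3 UMIs and 10 cells missed it by 0 to 3. The 8 cells inside held 35 luteal and 21 theca UMIs, and the 10 outside 4 and 18. Sfrp4, a gene the rule did not use, was at 3321 CPM just inside and 1226 CPM just outside, against 5248 CPM in the 44 cells above that margin and 229 CPM in the 867 cells below it. Gas6, high in theca-like cells, was at 23.9 and 105 CPM at the edge, against 43.1 and 1683 CPM farther in and out. The cells just outside were thus between the classes in Sfrp4 and nearer to the members in Gas6, at a median of 5066 UMIs against 9683.5 just inside. In Cyp11a1 they were below both classes, at 2820 CPM against 8005 just inside, 8955 farther in and 7193 farther out.

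The label was checked against luteal markers that the rule did not use. Cyp11a1 had a UMI in 47 of 47 young members, Prlr in 44, Hsd3b1 and Sfrp4 in 41 each, Star in 36 and Lhcgr in 23. In the shallower T cells Cyp11a1 and Hsd3b1 each had a UMI in 3.18%, Prlr in 1.91% and Star, Lhcgr and Sfrp4 each in 0.318%. In theca-like cells Cyp11a1 had a UMI in 99.3%, Prlr in 97.3%, Hsd3b1 in 99.9%, Star in 63.4% and Lhcgr in 54.1%. Detection of these genes thus told members from T cells and hardly from theca-like cells. Of 8 such markers, 7 were at least 2-fold higher than in young follicular granulosa cells. Over all 11947 genes counted in that comparison 11.2% were as much higher and 27.3% as much lower (38.5% either way). Against theca-like cells, which make steroids too, Star, Scarb1 and Sfrp4 were at least 2-fold higher and Hsd3b1 at least 2-fold lower, beside 11.5% higher and 18.2% lower (29.7% either way) of all 10835 genes counted. Parm1 had 3 UMIs in all young members. Of 8 theca markers counted, 0 were at least 2-fold higher than in theca-like cells and Nr2f2, Insl3 and Hhip were lower, with a median log2 ratio of -0.56. Fold counts take genes with at least 20 UMIs over both groups and leave out the 5 rule genes. The 1 UMI added before a ratio was scaled to each group's UMI total. The smaller group thus received less than 1 UMI and the larger group more, here and wherever 1 UMI is said to be added. Counts of list members below are to be read beside the shares of all genes given here. The class was clustered on these genes by the authors, so both comparisons are descriptions.

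Markers of other cell types differed by type in the young members. Of the defining granulosa markers, Cyp19a1 (aromatase of granulosa cells) and Amh had 0 UMIs and Fshr had 6, against 2 in theca-like cells (a log2 ratio of 5.18, 2.70 to 8.52). Summed granulosa markers were at 948 CPM in members, 1029 CPM in theca-like and 6490 CPM in granulosa cells. Of 10 counted against theca-like cells, Serpine2, Nr5a2, Hsd17b1 and Inhba were at least 2-fold higher and Inha, Kitl and Amhr2 lower (median 0.64). Inhba, the activin βA chain, had UMIs in 22 of 47 members and was at 299 CPM (528, 293 and 109) against 25.9 CPM in theca-like cells (21.4, 20.5 and 33.4), a log2 ratio of 3.53 (3.22 to 3.84). Each member pool was above each theca-like pool for Inhba. With 1 UMI added its ratio was 3.52, or 2.72 without pool A and 4.31 without pool C. Summed stromal fibroblast markers were at 86.0 CPM in members, 679 CPM in theca-like and 284 CPM in granulosa cells. Macrophage markers were at 37.6, 91.4 and 97.3 CPM, endothelial markers at 5.38, 14.1 and 22.1 CPM, and T and NK cell markers at 12.5, 21.6 and 29.6 CPM. Surface epithelium markers were at 23.3, 2.37 and 84.8 CPM, above theca-like cells. Smooth muscle and pericyte markers were at 89.6, 19.8 and 77.6 CPM, above both classes. Most of these were Tagln UMIs, 42 in 3 cells with 71.4% in 1 of them (a log2 ratio of 4.08 to theca-like cells, or with 1 UMI added 4.002, 2.24 without that cell and 2.52 without pool A). Oocyte and red cell markers had 0 UMIs in members. A further cell stood apart, 1 young cell of pool B with 27816 UMIs, called in G2M, which held 113 of the 128 Inha UMIs of all young members, 36 of 44 of Serpine2, 24 of 26 of Top2a and all 12 and 10 of Ube2c and Cdk1. It also had 277 Cyp11a1, 82 Sfrp4, 74 Star, 8 Ptgfr and 0 Akr1c18 UMIs. Without it the median ratio of the granulosa markers to theca-like cells was 0.0040, and that of Inha was -4.66 in place of -1.65. The ratios of Nr5a2, Col3a1, Tbx3 and cell cycle genes are given below with and without it. Whether its barcode holds more than 1 cell was not tested.

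Among steroidogenic genes, the early steps were high in members and the pattern differed from that of theca-like cells gene by gene. Star, the mitochondrial cholesterol carrier, was at 1115 CPM, with 885, 1173 and 1272 CPM in pools A, B and C. Theca-like cells had 399 CPM (448, 426 and 342) and granulosa cells 3.41 CPM. Each member pool was above each theca-like pool, with a log2 ratio of 1.48 (1.35 to 1.61), and the ratio to granulosa was 8.35 (7.85 to 8.90). Star was uneven over the members, with a median of 413 CPM per cell. In pool C 1 cell held 154 of 280 Star UMIs, or 24.8% of those of all young members. The Inha-rich cell held 74 of 176 in pool B. Cyp11a1, the side-chain cleavage enzyme, was nearly level between members and theca-like cells, at 8894 and 7497 CPM (0.25, 0.20 to 0.29), and at 58.0 CPM in granulosa cells (7.26). Its granulosa ratio was 8.15 without pool A. Fdx1, the ferredoxin that feeds electrons to Cyp11a1, was at 8197 and 6557 CPM (0.32), and at 206 CPM in granulosa cells.

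The progesterone-forming enzyme was lower than in theca-like cells. Hsd3b1 was at 2226 CPM in members (1924, 2012 and 2630.0 in the pools) and 4472 CPM in theca-like cells (4851, 4149.8 and 4472), a log2 ratio of -1.01 (-1.09 to -0.92) with no overlap of pools. Against granulosa cells, at 402 CPM, it was higher by 2.47 on the log2 scale. Akr1cl, an aldo-keto reductase gene, was at 2936 CPM in members and 8284 CPM in theca-like cells (-1.50, -1.57 to -1.43). Hsd3b1 and Hsd3b6, and Akr1c18, Akr1cl and Akr1c14, are close copies, so reads could be split between them in counting. Of 14 genes counted in the steroid list, Hsd17b7, Star, Hsd17b1 and Akr1c14 were at least 2-fold higher than in theca-like cells and Akr1cl, Hsd3b1 and Srd5a1 at least 2-fold lower, with a median log2 ratio of 0.28 beside -0.06 for all genes. Against granulosa cells 8 of 15 were higher and 4 lower (median 1.12 beside -0.28 for all genes), the 4 including Cyp19a1, at 0 and 12.0 CPM, for which the bound from 3 UMIs is a log2 ratio of -1.16.

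**Figure D2:**
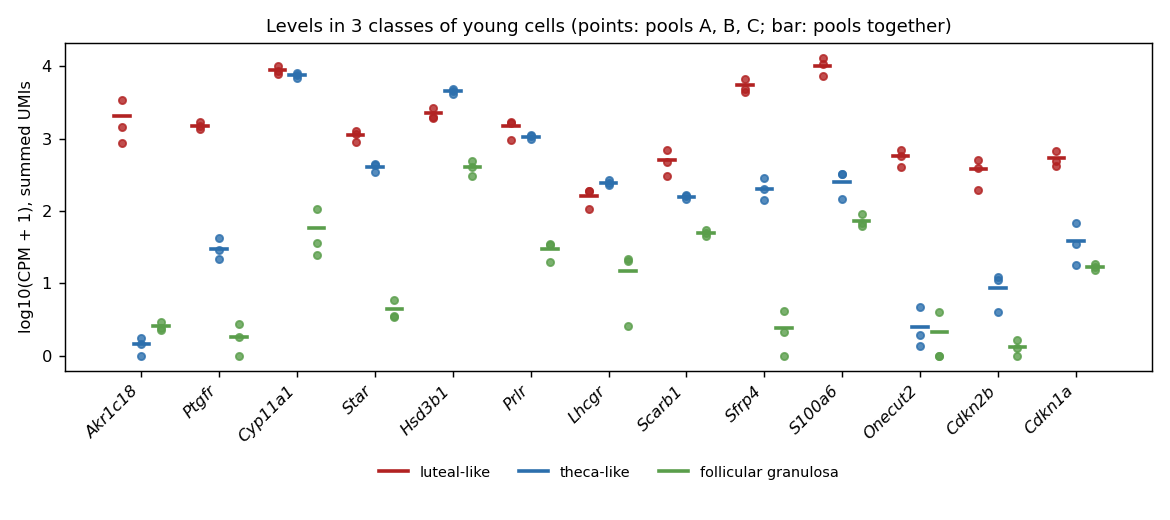
Levels of named genes in young luteal-like, theca-like and follicular granulosa cells, as log10 of CPM plus 1 of the summed UMIs, with bars for the pools together and points for pools A, B and C. Star and Sfrp4 of luteal-like cells lie above both other classes, Cyp11a1 is close to theca-like cells, and Hsd3b1 lies between the other classes. Akr1c18 and Ptgfr were used by the rule.

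Genes of cholesterol synthesis were higher in members as a group. None of 22 counted genes was at least 2-fold lower than in theca-like cells, and 11 were at least 2-fold higher, among them Hsd17b7, Fdps, Cyp51, Insig1, Dhcr7, Idi1, Sqle and Tm7sf2 (whose own interval included 0), with a median log2 ratio of 0.95, or 0.83 under TMM scaling. Against granulosa cells 21 of 22 were at least 2-fold higher, the exception being Mvk, with a median of 2.18. Their summed level was 3841 CPM in members, 1741 CPM in theca-like and 591 CPM in granulosa cells. The members were uneven in these genes. Of 16 counted within the members, 12 were at least 2-fold higher in the cells with an Edn2 UMI, as given below.

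Of the single enzymes, Hmgcs1 was at 615 CPM in members (719, 593 and 541 in pools A, B and C), 377 CPM in theca-like cells (380.1, 405 and 352) and 60.0 CPM in granulosa cells. Every member pool was above every theca-like pool, and the log2 ratio was 0.71 (0.54 to 0.87). This excess rested on 14 members with an Edn2 UMI, at 1395 CPM, as described below. The other 33 members were at 328 CPM, under the theca-like level, though at 514 CPM in pool B. Fdps, which makes farnesyl diphosphate, was at 729.6 CPM (474, 886 and 840.3) and 269 CPM in theca-like cells (1.44, 1.28 to 1.60). Idi1, an isomerase of the pathway, was at 317 and 101 CPM (1.65, 1.40 to 1.89). Msmo1 and Sc5d, later enzymes of sterol formation, had 287 and 104 CPM, where theca-like cells had 238 and 157 CPM, with log2 ratios of 0.27 and -0.60.

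Another gene of the list was singled out after its values were seen. Hsd17b7, which acts in cholesterol synthesis and on estrogen and is known from the rodent corpus luteum, was at 425 CPM in members (453, 167 and 577) and 30.9 CPM in theca-like cells (36.4, 29.7 and 28.2), a log2 ratio of 3.78 (3.50 to 4.05). It was lowest in pool B, and each member pool was above every theca-like pool.

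**Figure D3:**
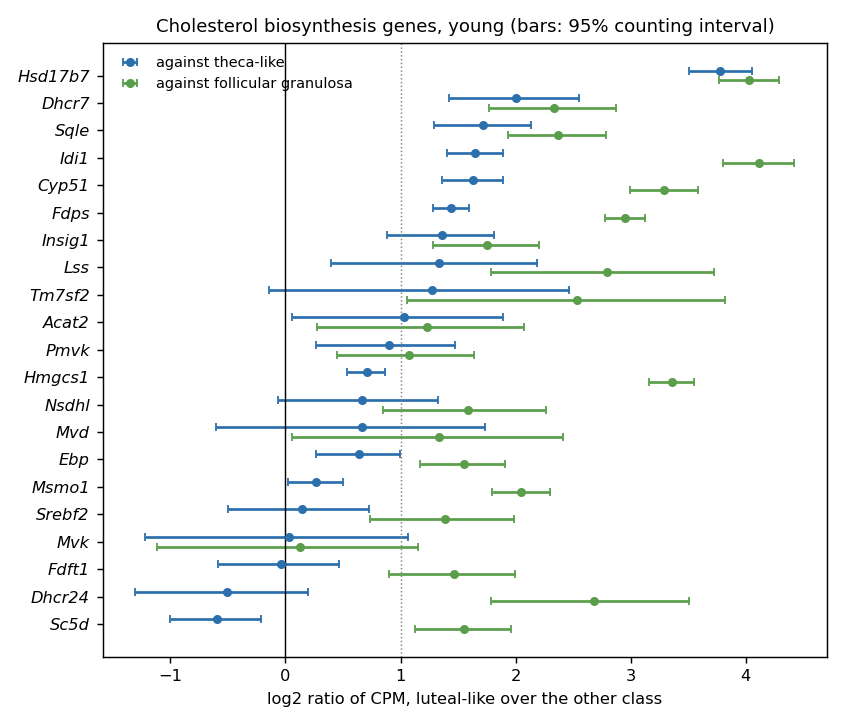
Log2 ratio of CPM between young luteal-like cells and young theca-like or follicular granulosa cells for 21 cholesterol biosynthesis genes, with 95% intervals that cover counting error only; the solid line marks equal levels and the dotted line a 2-fold difference. Against granulosa cells every gene except Mvk lies beyond the dotted line, and against theca-like cells Hsd17b7 lies farthest right, at 3.78.

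Genes of cholesterol uptake and storage were mixed. Scarb1, the receptor for high-density lipoprotein, was at 513 CPM (474, 299.8 and 690.4) against 156 CPM in theca-like and 48.7 CPM in granulosa cells, with log2 ratios of 1.72 (1.53 to 1.91) and 3.40 (3.18 to 3.61). Npc2, which carries cholesterol out of lysosomes, was at 642 and 210.3 CPM (1.61). Soat1, which esterifies cholesterol for storage, was at 529 and 1188 CPM (-1.17), and Abca1, which exports it, at 34.1 and 275 CPM (-3.01, or -3.90 without pool A). Of 15 genes counted, 5 were at least 2-fold higher than in theca-like cells (Scp2, Scarb1, Lpl, Npc2 and Stard4) and 5 lower (Soat1, Abca1, Plin2, Cd36 and Apoe), beside 11.5% and 18.2% of all genes. Against granulosa cells 7 of 16 were higher and 4 lower.

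Among hormone receptors, Prlr, the prolactin receptor, was at 1475 CPM in members (1652, 966 and 1672) and 1056 CPM in theca-like cells (1114, 1100.5 and 979.5). The log2 ratio was 0.48 (0.38 to 0.59), with pool B in the opposite order. Granulosa cells had 28.4 CPM, a ratio of 5.70 (5.50 to 5.90). Lhcgr, the luteinizing hormone receptor, was at 159.5 CPM against 244 CPM in theca-like cells (-0.62, -0.94 to -0.31) and 14.0 CPM in granulosa cells (3.51, or 2.81 without pool C). None of 13 receptors counted was at least 2-fold higher than in theca-like cells, and Esr1, Ptger2, Ptger4 and Pgrmc1 were lower. Of the prolactin signalling list Cish and Socs2, both feedback inhibitors, were at least 2-fold higher and Socs3 and Socs1 lower, out of 9. Over all genes 11.5% were as much higher and 18.2% as much lower, so with 9 genes these counts do not set the list apart. Socs2 was at 339 and 165 CPM (1.04) and Socs3 at 28.7 and 534 CPM (-4.22).

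The NR5A receptors, which drive steroidogenic genes, were in different order by class. Nr5a2 was at 86.0 CPM in members (53.3, 127 and 86.3), 7.70 CPM in theca-like cells (1.61, 15.1 and 5.94) and 339 CPM in granulosa cells. The log2 ratios were 3.48 (2.89 to 4.08) and -1.98. The cell rich in Inha UMIs held 15 of the 48 Nr5a2 UMIs of members and 15 of the 19 in pool B. With 1 UMI added the ratios were 3.44 and -1.98, or 2.97 and -2.44 without that cell. They were 2.51 and -2.65 without possible doublets, which are cells with a UMI of Ptprc, Pecam1, Cd3e or C1qa or with over 3 times the median UMI total of their group. Nr5a1 was at 34.1 CPM in members and 86.2 CPM in theca-like cells (-1.34, -2.08 to -0.68), and its ratio to granulosa cells included 0 (0.48, -0.28 to 1.15). In the list of transcription factors, Nr5a2, Runx2 and Gata6 were at least 2-fold higher than in theca-like cells and 7 of 19 were lower (Nr5a1, Nr1h3, Cebpa, Nr2f2, Gata4, Nrip1 and Nr0b1). Foxl2, a granulosa factor, had a ratio of 0.31 (-0.29 to 0.86) to theca-like and of -1.50 to granulosa cells.

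Outside these lists, the genes highest in members over theca-like cells by the ranking were led by Onecut2, a homeodomain transcription factor. It was at 577 CPM in members (581, 406 and 690.4 in the pools) and 1.48 CPM in theca-like cells, a log2 ratio of 8.61 (7.71 to 9.68), or 8.36 with 1 UMI added. Ratios without a pool or a cell are given on this second scale, and Onecut2 was then at 9.18 without pool A and 7.56 without pool C. Ramp1, which pairs with the calcitonin-like receptor to bind CGRP, was at 376 CPM (613, 379.8 and 173) and 1.63 CPM (7.85, 6.98 to 8.88). With 1 UMI added it was at 7.63, or 6.73 without pool A and 9.07 without pool C. S100a6, a small calcium-binding protein, was at 10212 CPM in members against 253 CPM (5.33, 5.26 to 5.41). Its relative S100a4 was at 912 against 19.4 CPM (5.56, 5.28 to 5.84). S100a4 was even over the pools, at 863, 906 and 958 CPM, and S100a6 was at 13153, 10647 and 7408 CPM.

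Further genes ranked high were Rnf152 (7.23 on the log2 scale), Prrx2 (7.03), Basp1 (6.31, or with 1 UMI added 6.22, and 7.24 without pool B), Ltbp1 (6.04), which binds latent TGF-β, Nrcam (5.69), a cell adhesion molecule, Sema3d (5.68, or with 1 UMI added 5.58, 7.11 without pool A and 4.82 without pool C) and Tnfrsf9 (5.54). Bves was at 6.06, or with 1 UMI added 5.76, 4.93 without the cell that held 45.5% of its UMIs and 5.04 without pool A. Cdkn2b, which encodes an inhibitor of Cdk4 and Cdk6, was at 378 CPM (506, 193 and 395) and 7.55 CPM in theca-like cells (5.65, 5.20 to 6.12), and at 0.310 CPM in granulosa cells (10.25, or with 1 UMI added 9.55, and 8.93 without pool A). Sfrp4, a secreted modulator of Wnt signalling and a luteal marker, was at 5428 CPM (4445, 4904 and 6623) against 203 CPM in theca-like cells (198, 284 and 141), a ratio of 4.74 (4.65 to 4.83), and 1.45 CPM in granulosa cells (11.87, or with 1 UMI added 11.69, and 12.32 without pool C). Without possible doublets the ratios to theca-like cells were higher for Onecut2 (9.72), Sema3d (7.71), Basp1 (7.23), S100a4 (6.40) and Cdkn2b (6.29). All of these ranked genes were higher in every member pool than in the theca-like cells of that pool, which the ranking required.

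The genes lowest against theca-like cells included a collagen and several secreted proteins. Gas6, a ligand of TAM receptors, was at 41.2 CPM in members (32.0, 26.7 and 59.0) and 1652 CPM in theca-like cells (-5.32, -5.98 to -4.74). Col3a1, the type III collagen chain, had 1 UMI in members and stood at 362 CPM in theca-like cells (-7.66, -12.96 to -5.18). Stc1, Adh1 (an alcohol dehydrogenase that acts on retinol), Mt3, Bpifb4, Serpina5 and Mgat4c had 0 UMIs in members and 244, 181, 133, 115, 112 and 111 CPM in theca-like cells. Bounds from 3 UMIs over the members put their log2 ratios at -5.50, -5.08, -4.63, -4.42, -4.37 and -4.37 or below. Tbx3 (-6.71, -12.02 to -4.23, from 1 UMI in members) and Gstm1 (-4.56), a glutathione transferase, completed the ranking. The single UMIs of Col3a1 and Tbx3 were both in the Inha-rich cell of pool B, and no other member had one. With 1 UMI added their ratios were -7.45 and -6.51. Without that cell members had no UMI of either gene, and the values of -10.36 and -9.42 were then set by the added count. They do not measure how far these genes were lower.

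Against follicular granulosa cells the ranked genes were in part the same ones, with Sfrp4, Tnfrsf9, Cdkn2b, Onecut2, Nrcam and Star all higher. Sfrp2, another Wnt modulator, was at 179 CPM and 0.103 CPM (10.76), Ccn5 at 206 and 0.207 CPM (9.96), and Tnc, the matrix protein tenascin C, at 828 and 2.69 CPM (8.27). With 1 UMI added, Sfrp2 was at 9.23, or 8.46, 7.93 and 9.92 without pools A, B and C, and Ccn5 at 9.003, or 8.35 without pool B. Saa2, whose reads may be shared with its near copy Saa1, was at 102 and 0 CPM. Among the lower genes, Amh, the anti-Müllerian hormone, was at 0 and 238 CPM, Apoa1 at 0 and 170.3 CPM, Ccn2 at 0 and 160 CPM, Arhgap29 at 1.79 and 465 CPM (-8.02, -13.32 to -5.54, from 1 UMI in pool A) and Thbs1, or thrombospondin, at 8.96 and 470.5 CPM (-5.71, or with 1 UMI added -5.68, and -6.33 without its top cell). Wfdc10 (-7.32, -12.62 to -4.84), Slc18a2 (-7.03, -12.34 to -4.55) and Aard (-6.75, -12.06 to -4.27) each rested on 1 UMI in members. Of 15 granulosa markers 14 were at least 2-fold lower and 0 higher, with a median of -3.10, -2.95 when genes at 0 are set to their bound, or -5.45 without the cell rich in Inha UMIs. Inha, the inhibin α chain, was itself at 229 and 2547 CPM (-3.47, or -6.48 without that cell).

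Cell cycle genes were lower in members than in granulosa cells, and more so without that cell. Of 15 counted against granulosa cells all were at least 2-fold lower, with a median log2 ratio of -3.25 (-2.80 with bounds), or -6.97 without the cell and -6.51 without pool B. Against theca-like cells the median was 0.03, with Ube2c, Cdk1 and Top2a at least 2-fold higher. Without the cell the median was -3.91 and the ratios of all 3 turned negative (-5.04, -4.60 and -1.67). Members then had no UMI of Ube2c or Cdk1, so the values of these genes were set by the added count. Both medians without the cell include such genes, and their bounds were not computed. Among inhibitors of cyclin-dependent kinases, Cdkn2b and Cdkn1a were at least 2-fold higher than in theca-like cells and Cdkn2c and Cdkn1c lower, of 6 counted. Cdkn1a was at 539.5 CPM in members (490.3, 413 and 668) against 37.6 CPM in theca-like and 15.8 CPM in granulosa cells (3.84 and 5.09). Leaving out pool B gave 4.59 for the former ratio, and leaving out pool C 3.14.

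Several secreted and protective factors stood out. Of 10 angiogenic genes counted, Edn2, Pdgfa, Adm, Angpt1 and Vegfa were at least 2-fold higher than in theca-like cells and Thbs1, Nrp1, Vegfb and Vegfd lower. Vegfa, the main vascular growth factor of the corpus luteum, was at 201 CPM (117, 99.9 and 341) and 46.6 CPM (2.11, 1.78 to 2.42, or 1.39 without pool C). Edn2, endothelin 2, was at 659.6 CPM (1332, 53.3 and 499.7) against 4.74 CPM (7.12, 6.60 to 7.69). Only 14 cells held its UMIs and 26.6% came from 1 cell, and its ratio with 1 UMI added was 7.04, or 5.57 without pool A and 9.32 without pool C. Timp1, an inhibitor of matrix proteases, was at 1545 and 211 CPM (2.87), and Gpx3, the secreted glutathione peroxidase, at 2341 and 715 CPM (1.71). The Gpx3 level of members leaned on few cells. The richest held 269, 249 and 229 UMIs, the last being the Inha-rich cell, and any other at most 69. Cxcl12, a chemokine, had a ratio of 1.62, or 0.26 without pool A and 2.70 without possible doublets. In the matrix list, 8 of 24 genes were at least 2-fold higher than in theca-like cells, among them Timp1, Timp2, Timp3, Mmp2 and Mmp14, and 10 lower, among them the collagen chains Col1a1, Col1a2, Col3a1, Col4a1, Col4a2 and Col5a2 (Col1a1 was higher, at 0.98, when cells were thinned to 1000 UMIs).

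The remaining lists, like those above, are read beside the 11.5% higher and 18.2% lower (29.7% either way) of all genes. Against theca-like cells the counts of higher and lower genes were 3 and 7 of 23 antioxidant genes, 2 and 4 of 20 immediate early genes, 2 and 1 of 16 cell death genes, 2 and 3 of 10 prostaglandin genes, 1 and 4 of 12 genes of antigen presentation and inflammation and 1 and 2 of 12 genes related to AMPK and metformin. None of 13 mitochondrially encoded genes was 2-fold apart (median -0.37), and 1 of 18 nuclear genes of oxidative phosphorylation was lower (median -0.29). Fos and Junb, induced by dissociation, had ratios of -1.23 and -1.08, and Jun 0.15.

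The young members were not uniform. They were split by Akr1c18, a choice made after its spread was seen: 14 cells had 10 or more UMIs (5, 2 and 7 in pools A, B and C), 12 had 1 to 9 and 21 had 0 (8, 6 and 7). Median depth was 13993.5, 5949.5 and 8604 UMIs, and median mitochondrial share 4.83%, 9.73% and 6.99%. Both differ between these groups, and their part was not tested. Ptgfr, which the rule summed with Akr1c18, was at 1982, 1424 and 1119 CPM in these groups. Comparing the cells with 10 or more UMIs with those at 0, 4.73% of 3469 genes counted were at least 2-fold higher and 4.7% lower.

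The genes named here were chosen after their values were seen. Onecut2 was at 1048 CPM in the cells rich in Akr1c18 and 149 CPM in those without (2.81, 2.30 to 3.35), with a UMI in 14 of 14 and 8 of 21 cells. Cdkn2b was at 677 and 149 CPM (2.18), S100a4 at 1367 and 364 CPM (1.91) and S100a6 at 14131 and 5744 CPM (1.30). In the other direction Gpx3 was at 891 and 3757 CPM (-2.08), Wnt4, a Wnt ligand, at 61.9 and 392 CPM (-2.66), Cxcl12 at 71.5 and 460 CPM (-2.69) and Hsd3b1 at 1115 and 2549 CPM (-1.19). The Gpx3 level of the cells without Akr1c18 rested on a few of them. The richest held 269, 249 and 229 UMIs, and any other at most 58. The cell with 229 was the Inha-rich cell of pool B. Cyp11a1 (0.45), Sfrp4 (0.27) and Prlr (0.02) were nearly level. Across the 47 cells, on a log scale of UMIs per cell total, Akr1c18 and Ptgfr had Pearson's r of 0.25 and Spearman's rho of 0.19, and Akr1c18 and Hsd3b1 -0.20 and -0.14. The rule chose cells by the sum of Akr1c18 and Ptgfr, so a member without one must have the other. This choice shapes how these rule genes relate among members. The cells also share libraries and differ in depth, and these weak values are a description.

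Another split, by Edn2, was also made after the values were seen, and the genes named for it were chosen the same way. The 14 young cells with an Edn2 UMI came from all pools (5, 3 and 6), with a median of 10780.5 UMIs against 11744 in the other 33. Edn2 had 0 UMIs in 314 young T cells and in 1649 young macrophages, which allows shares of up to 0.955% and 0.182%. Of 16 cholesterol biosynthesis genes counted, 12 were at least 2-fold higher in the Edn2 cells and 0 lower (median 1.77), beside 9.32% higher and 15.9% lower of all 4014 genes counted. Hmgcs1 was at 1395 CPM in the 14 cells (1774, 1367 and 1060.1 in the pools) and 328 CPM in the 33 (170.2, 514 and 289.6), a log2 ratio of 2.09 (1.77 to 2.41), with a UMI in 14 of 14 and 21 of 33 cells. The pools of the groups did not overlap. Fdps, of the same pathway, was level (0.08, -0.24 to 0.40).

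The Edn2 cells also had less S100a6, at 2616 against 13002 CPM (-2.31, -2.47 to -2.17), and less S100a4, at 120.1 against 1203 CPM (-3.32). Vegfa was at 534 and 78.4 CPM (2.77), Fos at 340.3 and 1826 CPM (-2.42) and Akr1cl at 861 and 3698 CPM (-2.10). The pool values of S100a6 were 2988, 2877 and 2232 CPM in the Edn2 cells and 18449, 11440.3 and 9908 CPM in the others. Of the rule genes, Ptgfr was at 614 and 1823 CPM, and Akr1c18 at 934 and 2448 CPM with a UMI in 11 of 14 and 15 of 33 cells, so it was found in a larger part of the Edn2 cells at a lower summed level. Hsd3b1 was at 1241 and 2588 CPM (-1.06), Sfrp4 at 5525 and 5392 CPM (0.04). Star was at 1602 and 936 CPM, with 64.2% of the former in 1 cell, and at 673 CPM without that cell.

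A further 6 young members, also set apart after the values were seen, had no Sfrp4 UMI (3, 2 and 1 in pools A, B and C, median depth 7715 UMIs against 11680 in the other 41). In them Hsd3b1 was at 121.1 CPM against 2432 CPM (-4.33, -5.78 to -3.20), and 5 of its 6 UMIs were in 1 cell. Of 16 cholesterol biosynthesis genes 13 were at least 2-fold lower and 0 higher (median -2.54), beside 20% lower and 9.97% higher of all 4014 genes counted. Hmgcs1 had 1 UMI (20.2 against 673 CPM). Prlr was at 464 against 1574 CPM (-1.76), with 60.9% of the former in 1 cell, and at 253 CPM without that cell. Cyp11a1 was closer, at 6739 against 9105 CPM (-0.43), but 53.3% of the former came from 1 cell. Without that cell Cyp11a1 was at 4388 CPM. Ptgfr was at 2341 against 1416 CPM, and S100a6 at 19410.4 against 9315 CPM, 58.4% of it from 1 cell, without which it was at 11252 CPM. Of 19 immediate early genes 11 were at least 2-fold higher and 1 lower (median 1.20), Fos being at 3571 against 1218 CPM. With 6 cells these values rest on few molecules.

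The 5 aged and metformin members can only be given cell by cell. The metformin cell of pool A held 10778 UMIs, that of pool B 21076 and that of pool C 9473. All 3 had Akr1c18 (17, 63 and 9 UMIs) and Ptgfr (29, 69 and 14) and none had an Sfrp4 UMI. Their Cyp11a1 was at 88, 62 and 112 UMIs, Star at 1, 7 and 2, Hsd3b1 at 1, 0 and 2, Prlr at 0, 13 and 4, Onecut2 at 21, 42 and 28, S100a6 at 215, 306 and 376, and Edn2 at 0 in each. Mitochondrial UMIs were 0.0371%, 4.20% and 3.19% of the total.

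The aged cells, of 9853 and 8554 UMIs, had no Akr1c18 UMI and were members through 12 and 29 Ptgfr UMIs. Both had Sfrp4 (33 and 19 UMIs) and Cyp11a1 (80 and 147). They differed in Hsd3b1 (1 and 54), Prlr (0 and 31), Onecut2 (0 and 14) and Akr1cl (17 and 104). No comparison of levels between conditions was run within the members, since it was set to need 20 cells on each side.

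**Figure D4:**
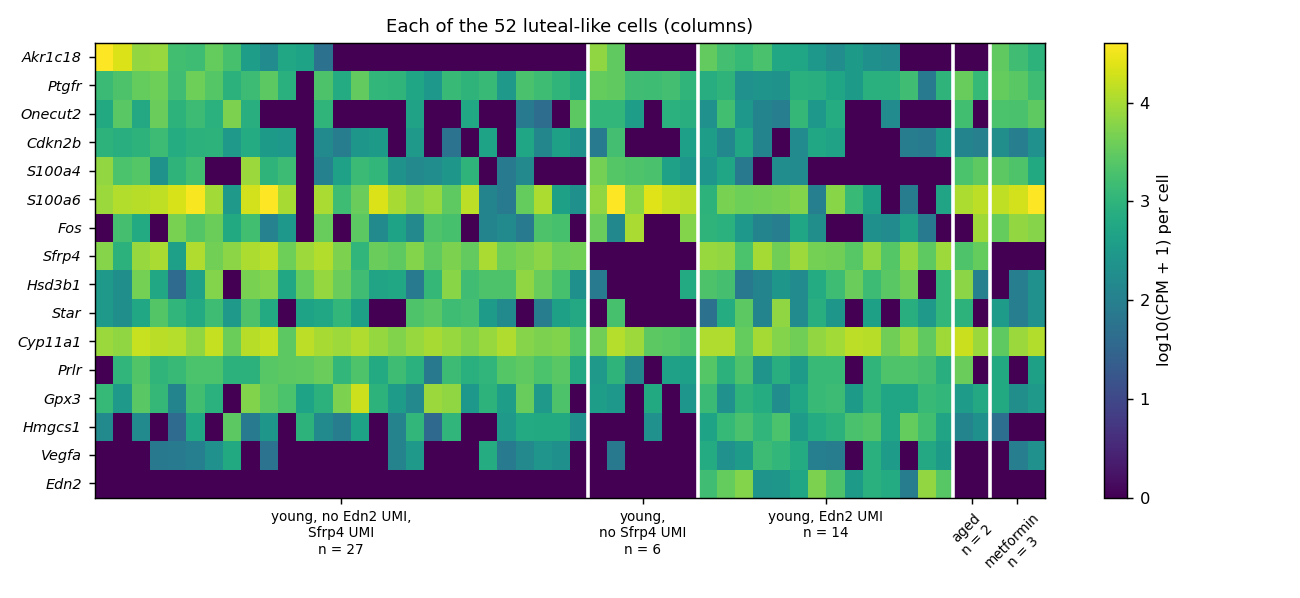
Level of named genes (rows) in each of the 52 luteal-like cells (columns), coloured by log10 of CPM plus 1 per cell and grouped as 27 young cells with an Sfrp4 and no Edn2 UMI, 6 young cells without an Sfrp4 UMI, 14 young cells with an Edn2 UMI, 2 aged cells and 3 metformin cells; darkest is 0 UMIs. The 3 metformin cells have Akr1c18 and Ptgfr UMIs and no Sfrp4 UMI, and both aged cells have Sfrp4 and no Akr1c18 UMI.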

How the data were processed

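Ovary cells of 3 conditions, in 3 multiplexed pools of the 10x Genomics 3′ kit, were read from 1 table. The authors deposited whole-number UMI counts for 18789 genes and, per the file headers, the pool, condition and cell type name of each cell (20 names), its cell cycle phase and the percent of UMIs on mitochondrial genes. Per the submitters' processing notes, Cell Ranger 3.0.2 was run on the GRCm38 (mm10) build. The lowest total was 500 UMIs and the highest mitochondrial percent 20.0. The deposited doublet column marked 0 cells, no doublet caller was run, and no further cell was left out.

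The members and all gene lists (18 gene lists and 11 marker lists) were chosen with earlier results of these data known. UMIs were summed per group and scaled to CPM. Shares have exact Clopper-Pearson intervals at 95%, and log2 ratios of CPM exact intervals conditional on the summed count. PCR and UMI collapse are not covered. Between pools of the same class the interval excluded 0 in 14.1% to 17.7% of genes in luteal-like cells and 9.72% to 13.4% in theca-like and granulosa cells, so the intervals understate the spread between repeats. With 1 sample per condition no test was run. Counts of genes use at least 20 UMIs over both groups, 1 UMI added (scaled to each group's UMI total) and a 2-fold difference. Genes with at least 50 UMIs were ranked by the bound of the interval nearest 0, and the first 14 higher and 10 lower (theca-like) and 10 higher and 8 lower (granulosa) were named. The same sign was required in every pool. Another 17 genes were to be named in any case, some of which are not reported here. List members were named among the 4 with most UMIs whose interval excluded 0. A count of 0 was set to 3 UMIs for bounds and limits. Ratios were checked on simulated data. Python 3.11.15, numpy 2.4.6, scipy 1.17.1 and pandas 2.3.3 were used, with edgeR 4.0.16 for TMM factors only. Alternatives changed the membership margin, depth, scaling, minimum count, added count, pools, top cells and possible doublets.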

Additional observations from a re-analysis of the deposited data

Results flagged for a closer look

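Akr1c18, which was used here to choose luteal-like cells, also had UMIs in another class of young cells that the comparisons above do not use. A UMI was found in 53 of 1649 young macrophages, or 3.21% (exact interval 2.42 to 4.18), with 125 UMIs in all and at most 14 in a cell, at a median depth of 5905 UMIs. The pool shares were 4.04%, 3.39% and 2.25%. Young T cells had 0.318% at a median of 2575 UMIs, theca-like cells 0.407%, fibroblasts 0.554% and follicular granulosa cells 1.20%. In aged macrophages the share was 0.493% (1 of 203), and in metformin macrophages 0 of 242 cells had a UMI, which allows a share of up to 1.24%. The same young macrophages had a UMI of Cyp11a1 in 17.0%, of Hsd3b1 in 13.3%, of Star and of Sfrp4 in 2.06% each and of Ptgfr in 0.667%. The source of these UMIs was not tested.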

How the results depend on the processing

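The young share stayed the highest under each alternative run, while the aged share was above the metformin one without pool A (0.114% and 0.0818%) and without pool C (0.0924% and 0.0854%). Of the log2 ratios of single genes and list medians under the alternatives, 2663 stayed within 1 SD of the pool values and 307 moved further. Another 21 changed sign from a log2 ratio of at least 1 either way. Smaller ratios that changed sign are among the former numbers. Of the shares and the counts of genes, 56 stayed (within 1 SD for shares, 1.5 times for counts) and 10 moved. The SD came from the same pools that were left out in turn, so for those settings it is a weak check. The ratio of Tagln to granulosa cells, at 1.67 and at 0.44 without pool A, counted as having stayed. Thinning every cell to 1000 UMIs gave shares of 0.457% in young and 0.112% in metformin, after 186 and 175 shallow cells were left out. Thinning also gave 615 genes higher and 1227 lower than in theca-like cells, and 729 higher and 2038 lower than in granulosa cells. With no minimum count the numbers were 2543 and 4453, and 2315 and 6160. The thinned sums hold fewer UMIs and the unfiltered ones more genes. Requiring a luteal sum of at least 2 times the theca sum plus 1 gave shares of 0.512%, 0% and 0.0799%. TMM factors moved the log2 ratios to theca-like cells by -0.13 and gave 1052 higher and 2231 lower.

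Leaving out each pool in turn gave shares from 0.541% to 0.683% in young, 0% to 0.114% in aged and 0.0735% to 0.0854% in metformin. The counts against theca-like cells ran from 1125 to 1219 higher and 1836 to 1978 lower, and against granulosa cells from 1184 to 1327 higher and 3109 to 3135 lower. Over the same settings the ratios to theca-like cells ran from -4.37 to 3.14 for Cdk1, -1.51 to 3.73 for Top2a and -4.58 to 2.88 for Ube2c, lowest without pool B. Without pool B members had no UMI of Cdk1 or Ube2c, and the lowest values of these genes were set by the added count.

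Against theca-like cells, thinning turned Bbc3 to -0.62, Top2a to -0.62, Ube2c to -0.62, Col1a1 to 0.98 and Pdgfra to 0.057. The equal value of Bbc3, Top2a and Ube2c is set by the added count, with no UMI of them left in members and hardly any in theca-like cells. It does not show a reversal. A margin of at least 3 UMIs in the rule turned Cdk1 to -4.59, Top2a to -1.57 and Ube2c to -5.03. Leaving out possible doublets (6 luteal-like cells and 66 theca-like ones) turned C1qb to 0.16, Cdk1 to -2.89 and Ube2c to -2.99. Leaving out the cell with the most UMIs of the gene, which is also the cell rich in Inha (an alternative chosen after seeing the data), turned Cdk1 to -4.60, Top2a to -1.67 and Ube2c to -5.04. Wherever that cell is left out, members have no UMI of Cdk1 or Ube2c, and the values of these genes are set by the added count. Against granulosa cells, Tagln turned to -0.090 without its top cell. The cause was not tested beyond these settings. No paired analysis was possible because each condition is 1 sample and the pools are not replicates. The alternatives for comparisons between conditions were not run, since 2 aged and 3 metformin cells were under the 20 needed. Depth limits the report most for genes under 20 UMIs and for the 6, 12 and 14 cells of the splits.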
